A study of Arabidopsis thaliana with 18 samples.

Results

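*SOC1* and the 5 genes of its MADS-box clade, *AGL42*, *AGL71*, *AGL72*, *AGL14* and *AGL19*, were followed through 4 lists of DNA-binding sites of the flowering repressors SVP and FLC in *Arabidopsis thaliana*. The genes were chosen as a family, by name and not by a measured value, but with earlier results of these data known. A peak was counted for a gene when the authors had assigned that gene to it. Of 1503 peaks in the 4 lists, 8 were assigned to a gene of the clade, and 3 of the 6 genes had at least 1 peak, among 1131 genes with a peak in any list. All 4 peaks of *SOC1* were at its transcription start, 1 in each list, whereas *AGL14* and *AGL19* had peaks of SVP:GFP only and *AGL42*, *AGL71* and *AGL72* had none.

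Binding was measured by ChIP-seq, in which DNA attached to a protein is recovered with an antibody and sequenced, in 2-week-old Columbia-0 seedlings. The plants in which SVP:GFP or FLC binding was mapped carried a functional *FRI* allele, which keeps *FLC* highly transcribed. SVP fused to GFP, driven by its own promoter in plants with *svp-41*, a loss-of-function allele of *SVP*, was recovered with an anti-GFP antibody (Ab290) either with functional *FLC* (here WT) or in *flc-3*, which lacks FLC. FLC was recovered with an FLC antiserum from *SVP FLC FRI* plants (WT) and from *svp-41*, which lacks SVP. The labels name *35S:GFP* plants, whose titles state no *FRI* allele, as the negative control of the SVP:GFP samples. They name *svp-41 flc-3 FRI* plants as that of the FLC samples, with 3 samples in each of the 6 groups. By the methods of the study, control samples were combined into a single control for peak calling, and their stated number is smaller than that in the labels. Which control samples were used, and whether this joined the controls of both proteins, is not given in the sources used here. The labels give long days for growth and the methods of the study give short days. The SVP:GFP lists come from a transgene, and its insertion sites and copy number were not analysed here. The lists merge the 3 samples of a group and come without their read numbers, so a peak has 1 value per list, with no replicate error and no depth, and no test was possible. Any signal too weak for a list cannot be told apart from no binding.

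MADS-domain proteins bind DNA as dimers at CArG-boxes, a core of A and T bases between a pair of C and a pair of G bases. SVP and FLC act in the same protein complex and delay flowering. SOC1 is a floral integrator: it collects signals from day length, temperature, age and gibberellin and activates the programme of floral transition. AGL42, AGL71 and AGL72 promote flowering at apical and axillary meristems, AGL14 acts in roots and in the floral transition, and AGL19 promotes flowering after vernalization, the long cold that silences *FLC*.

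The sequences below are motif matches in or near the clade, shown to place the summits and peaks relative to them, and were read from the TAIR10.1 genome on the strand of the gene, with the box in capitals and the flanking bases in lower case. A strict CArG-box was CC, 6 A or T bases and GG on either strand, a CArG-box with 1 mismatch differed from it at 1 of its 10 positions, and a G-box was CACGTG. The first pair lies at the summits of *SOC1*, the next is the strict box of *SOC1* found in a single peak, the G-boxes lie beside the summits of *AGL14* and *AGL19*, and the last pair are strict CArG-boxes upstream of *AGL14* and *AGL42* that no peak covered.
*SOC1*, 1 mismatch, 12 bp upstream, chr2:18811123-18811152, minus strand: aggcttttttCCAAAATAAGtaaaggatga
*SOC1*, 1 mismatch, 41 bp upstream, chr2:18811152-18811181, minus strand: tcaaaatatgCTATTTTTGGtctttcttaa
*SOC1*, strict, 706 bp upstream, chr2:18811817-18811846, minus strand: aattttatctCCAAAAAAGGatattttttt
*AGL14*, G-box, 426 bp upstream, chr4:7142484-7142509, plus strand: gtaataatggCACGTGtcatgatctc
*AGL19*, G-box, 463 bp upstream, chr4:12028455-12028480, minus strand: ttaatatggaCACGTGccaagatctc
*AGL14*, strict, 1488 bp upstream, chr4:7141420-7141449, plus strand: tagaaatgcaCCAAATAAGGagtggccatg
*AGL42*, strict, 594 bp upstream, chr5:24964038-24964067, plus strand: gttaagtttgCCAAAATAGGgtaaagaata

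*SOC1* (AT2G45660, annotated as *AGL20*) spans chr2:18807505-18811125 on the minus strand and was the gene of the clade with a peak in every list. Among protein-coding genes, 0.179% were assigned to a peak in all 4 lists. The peak of SVP:GFP in WT had a fold-enrichment over the control of 9.45 and a −log10(*P*) of 176, and it ranked 7 of 523 peaks by −log10(*P*). In *flc-3* the SVP:GFP peak had a fold-enrichment of 5.54 and a −log10(*P*) of 38.9 and ranked 27 of 246. The FLC peak in WT had a fold-enrichment of 9.63 and a −log10(*P*) of 69.4 and ranked 17 of 315. In *svp-41* the FLC peak at *SOC1* had a fold-enrichment of 17.0 and a −log10(*P*) of 204, and it ranked 1 of 419 by both measures. Thus *SOC1* stood within the first 1.34% of the SVP:GFP list in WT, 11.0% in *flc-3*, 5.40% of the FLC list in WT and 0.239% in *svp-41*. These lists are of unequal length. Among the 220 genes in both SVP:GFP lists *SOC1* ranked 11 in WT and 25 in *flc-3*. Among the 183 in both FLC lists it ranked 27 in WT and 1 in *svp-41*.

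**Figure D1:**
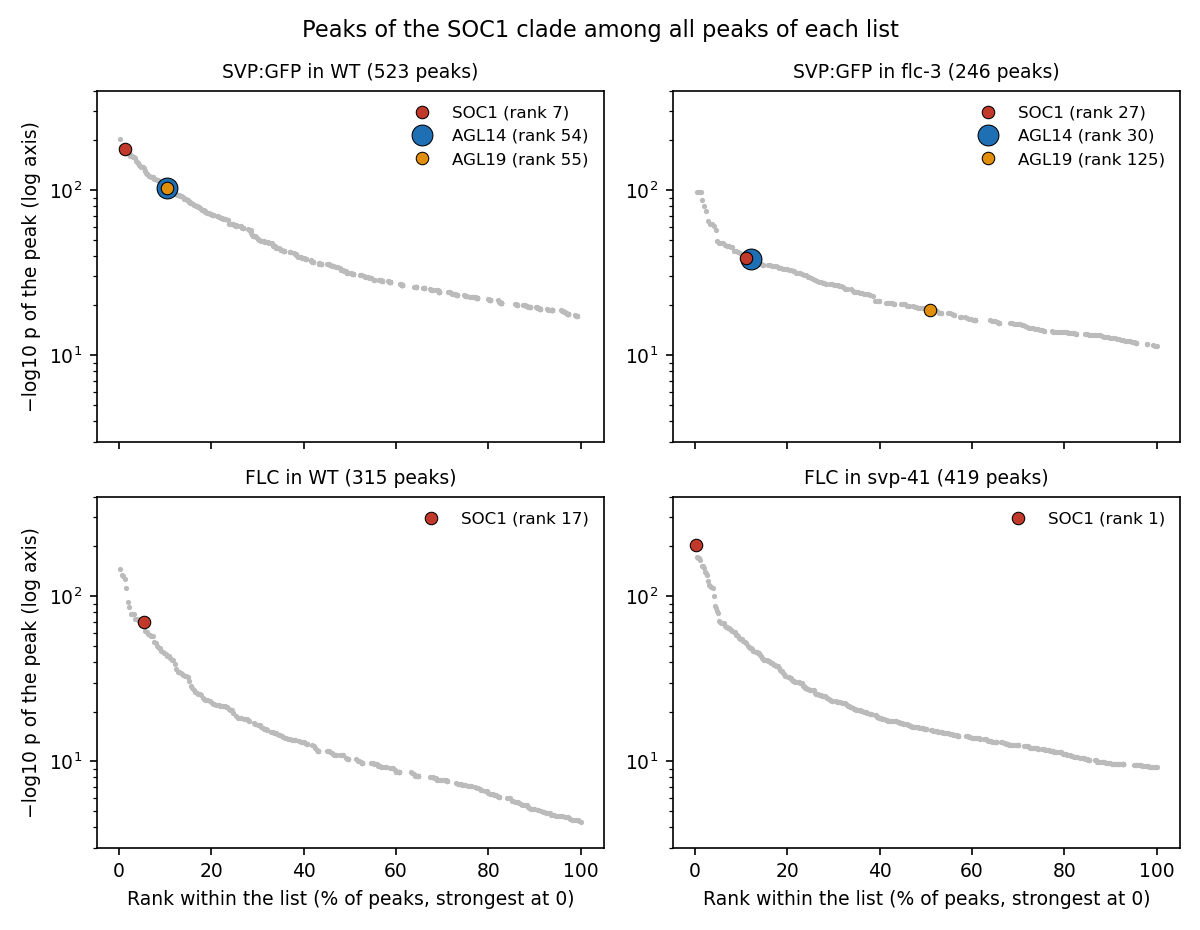
Every peak of the 4 lists by its rank (x, percent of the list) and its −log10 p (y, log axis), with the peaks of *SOC1*, *AGL14* and *AGL19* as coloured circles (larger for *AGL14*, to keep overlapping circles visible). *SOC1* is the first peak of FLC in *svp-41*, and *AGL19* ranks 55 of 523 SVP:GFP peaks in WT and 125 of 246 in *flc-3*, lists of unequal length.

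The 4 summits at *SOC1*, the positions of highest enrichment, lay within 14 bp of each other. They were 30 bp upstream of the annotated gene start for SVP:GFP in WT, 28 bp for SVP:GFP in *flc-3*, 29 bp for FLC in WT and 16 bp for FLC in *svp-41*. All were thus in the proximal promoter, outside both annotated transcripts of *SOC1*, which start 0 and 40 bp into the gene. Over the 55 genes with a peak in all 4 lists the median spread of the summits was 33.0 bp, and 6 of them (10.9%) had a spread of at most 14 bp.

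The *SOC1* peaks differed more in width than in position. The SVP:GFP peak in WT covered 1133 bp, from 882 bp upstream to 250 bp inside the gene, where the first exon is 5′ UTR in both transcripts. In *flc-3* it covered 436 bp, and the FLC peaks covered 559 bp in WT and 605 bp in *svp-41*. The median widths of the same lists were 611, 430, 234 and 301 bp. By width the *SOC1* peak therefore ranked 84 of 523, 118 of 246, 18 of 315 and 22 of 419 in these lists. The region common to all 4 peaks was the whole 436 bp of the SVP:GFP peak in *flc-3*, chr2:18810952-18811387, and the 4 peaks together covered 1161 bp.

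Both CArG-boxes with 1 mismatch printed for *SOC1* at 12 and 41 bp upstream were within all 4 peaks. The summits of SVP:GFP in both genotypes and of FLC in WT lay between these boxes, and that of FLC in *svp-41* lay in the box at 12 bp. A further box with 1 mismatch, 276 bp upstream, was in 3 of the 4 peaks. Counting boxes with at most 1 mismatch, all 4 *SOC1* peaks had 2 within 100 bp of the summit. At least 1 was there in 37.7% of SVP:GFP peaks in WT, 32.9% in *flc-3*, 51.4% of FLC peaks in WT and 49.6% in *svp-41*. The share of peaks with 2 was not counted. The strict CArG-box 706 bp upstream was covered by the SVP:GFP peak in WT alone, 676 bp from its summit, and was the single strict box in the 8 peaks of the clade. Strict boxes were present in 7.65%, 8.94%, 9.21% and 10.3% of the peaks of the 4 lists, in the same order (95% Wilson intervals 5.67 to 10.2, 5.98 to 13.2, 6.49 to 12.9 and 7.71 to 13.5). No *SOC1* peak contained a G-box.

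No other gene was assigned to the *SOC1* peaks. The neighbours of *SOC1* are *AGL6*, another MADS-box gene, 918 bp beyond its 3′ end, and AT2G45670, 3534 bp beyond its 5′ end. SVP:GFP had a further peak in this upstream interval, which was assigned to AT2G45670 only. In WT its summit was 3281 bp upstream of *SOC1*, the fold-enrichment was 5.94 and the rank 91 of 523. In *flc-3* the summit was 3210 bp upstream, the fold-enrichment 2.92 and the rank 241 of 246. Both positions lie just past the 3 kb within which the authors assigned genes to a summit. Neither FLC list had a peak there, and no other peak outside those assigned to the clade was within 10 kb of any of its genes.

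*AGL14* (AT4G11880, chr4:7142922-7147391, plus strand) had a peak in both SVP:GFP lists and in neither FLC list. In WT the peak had a fold-enrichment of 6.43 and a −log10(*P*) of 103 and ranked 54 of 523. In *flc-3* the fold-enrichment was 5.15 and the −log10(*P*) 38.0, with rank 30 of 246. Relative to its list *AGL14* was thus at 10.3% in WT and 12.2% in *flc-3*, in lists of unequal length. Among the 220 genes in both lists it ranked 86 in WT and 29 in *flc-3*. The summits were 487 and 473 bp upstream of the gene start, and the peaks, 777 and 492 bp wide, ended 195 and 238 bp before it. The nearest FLC summits were 28910 bp away in WT and 165123 bp away in *svp-41*.

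The *AGL14* peaks were also assigned to AT4G11870, whose start is 1716 and 1730 bp from the summits on the other side, and to AT4G11876, an identifier absent from the annotation used here. Of the annotated genes, *AGL14* was nearest to the summits.

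*AGL19* (AT4G22950, chr4:12023824-12028004, minus strand) likewise had a peak in both SVP:GFP lists only. In WT its peak had a fold-enrichment of 6.89 and a −log10(*P*) of 103 and ranked 55 of 523, next to *AGL14*. In *flc-3* the fold-enrichment was 3.82, the −log10(*P*) 18.7 and the rank 125 of 246. These ranks are 10.5% and 50.8% of lists of unequal length. Among the 220 genes in both lists *AGL19* ranked 89 in WT and 119 in *flc-3*. The summits were 516 and 501 bp upstream of the gene start in peaks of 639 and 318 bp. These peaks ended 335 and 350 bp before the gene. The nearest FLC summits were 23679 and 352095 bp away. AT4G22960, which starts 1500 and 1515 bp from the summits on the other side, was assigned to the same peaks.

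**Figure D2:**
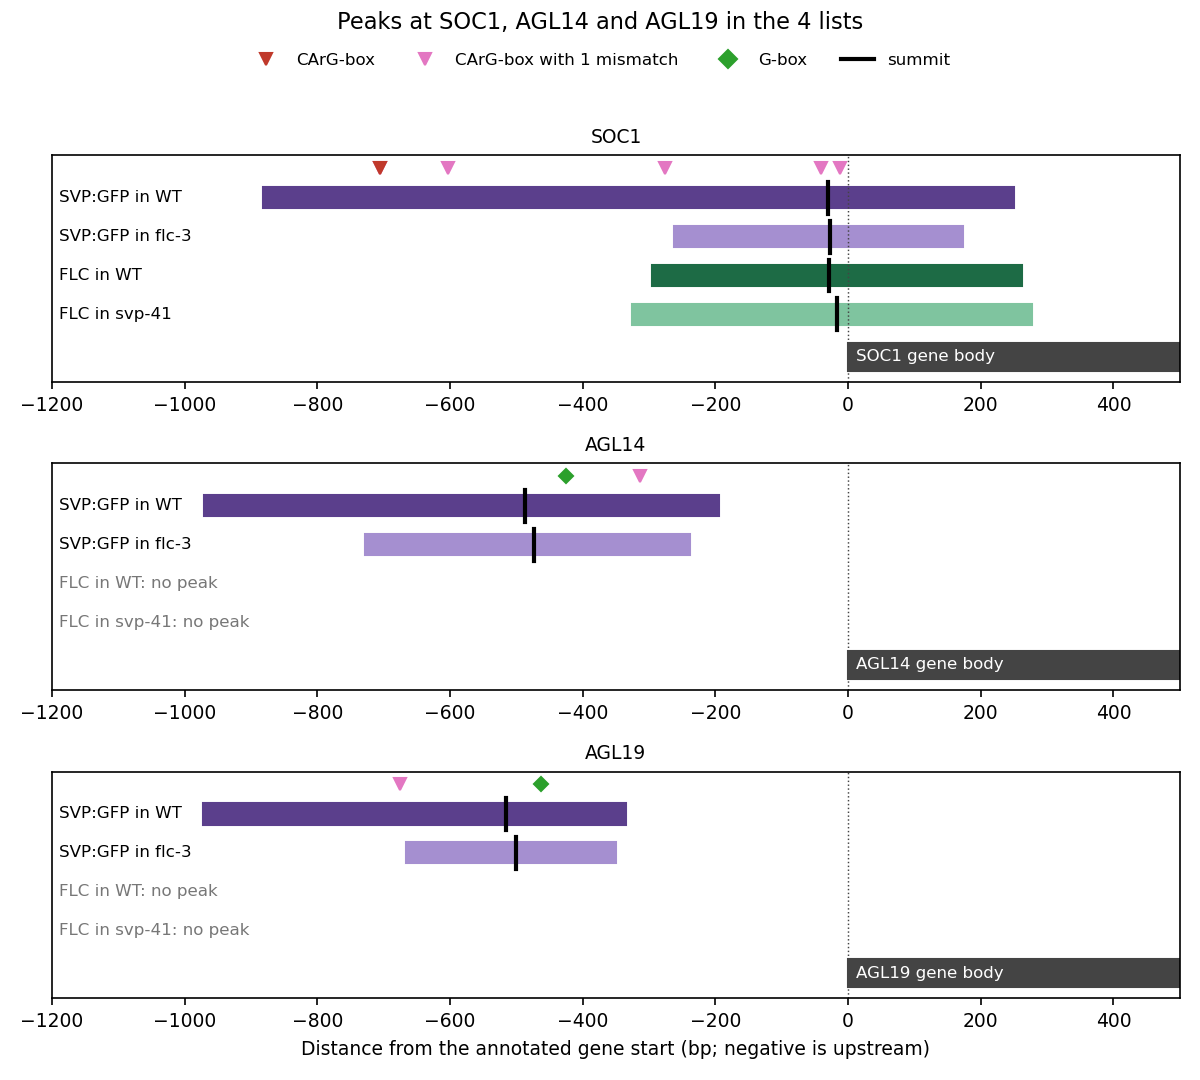
Peaks (bars, coloured by list) and summits (black lines) at *SOC1*, *AGL14* and *AGL19*, by distance from the annotated gene start in bp, with CArG-boxes, CArG-boxes with 1 mismatch and G-boxes within the peaks marked above. The 4 summits of *SOC1* lie 16 to 30 bp upstream of the gene and those of *AGL14* and *AGL19* 473 to 516 bp upstream.

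The peaks of *AGL14* and *AGL19* resembled each other in position and in sequence. In both genes the peak in *flc-3* lay within that in WT, with an overlap of 492 bp at *AGL14* and 318 bp at *AGL19*, and the summits of the 2 lists were 14 and 15 bp apart. For the 220 genes in both SVP:GFP lists the median distance was 31.5 bp, and 28.2% had summits at most 14 bp apart and 29.1% at most 15 bp. The G-boxes printed above were the only ones in the *AGL14* and *AGL19* peaks, and each was on the gene side of the summits, 61 and 47 bp away at *AGL14* and 53 and 38 bp away at *AGL19*. A G-box was within 100 bp of the summit in 16.8% of the SVP:GFP peaks in WT and 15.0% in *flc-3*, against 8.89% and 3.82% of the FLC peaks in WT and *svp-41*. G-boxes are known as sites of bZIP and bHLH transcription factors.

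The 301 bp around the WT summits of *AGL14* and *AGL19* were then aligned on the strand of each gene. A stretch of 129 aligned positions, 102 of them identical (79.1%), included the summit and the G-box of both genes. The same windows of *SOC1* aligned with *AGL14* over 14 positions and with *AGL19* over 18. In the 3 kb upstream of *SOC1*, *AGL42*, *AGL71* and *AGL72* the *AGL14* stretch aligned over 9 to 18 positions. Neither gene had a strict CArG-box in its peaks or a CArG-box with 1 mismatch within 100 bp of a summit. The nearest boxes with 1 mismatch in their peaks were 173 and 159 bp from the summits at *AGL14* and 159 bp from the WT summit at *AGL19*, and the *flc-3* peak of *AGL19* had none.

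*AGL42*, *AGL71* and *AGL72* were in none of the 4 lists. *AGL42* (AT5G62165, chr5:24964646-24968607, plus strand) had its nearest SVP:GFP summits 22054 bp away in WT and 22067 bp away in *flc-3*, in a peak assigned to AT5G62220. Its nearest FLC summits were 47235 and 29618 bp away. *AGL71* (AT5G51870, chr5:21085462-21088414) and *AGL72* (AT5G51860, chr5:21081844-21084427) are neighbours on the minus strand, 1034 bp apart. The nearest summits to *AGL71* were 152196 bp away for SVP:GFP in WT, 350509 bp in *flc-3*, 46658 bp for FLC in WT and 23897 bp in *svp-41*. For *AGL72* they were 156183, 354496, 43040 and 20279 bp away. No summit of any list therefore came within 20 kb of these 3 genes. The closest was the FLC summit in *svp-41* beside *AGL72*.

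**Figure D3:**
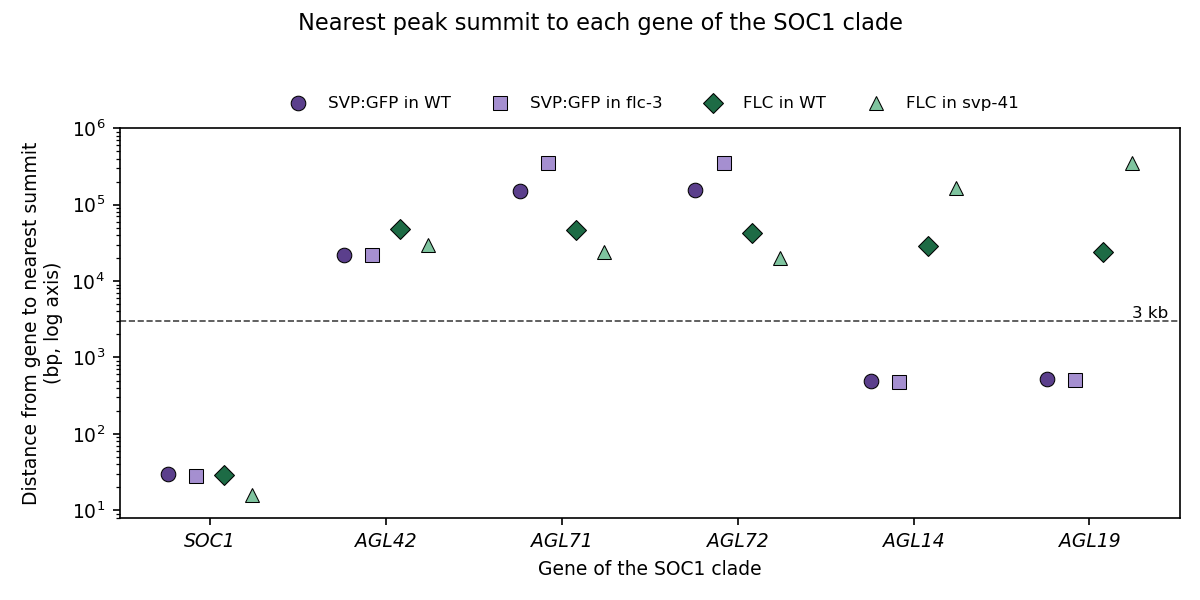
Distance in bp (log axis) from each gene of the clade to the nearest summit of each list, with the 3 kb limit for assignment as a dashed line. *SOC1* is below the line in all 4 lists, *AGL14* and *AGL19* in the 2 SVP:GFP lists, and *AGL42*, *AGL71* and *AGL72* in none.

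Strict CArG-boxes also lay outside the peaks of the clade. *AGL42* had a strict box 594 bp upstream with no peak, *AGL14* had one 1488 bp upstream and one within 1 kb past its end (chr4:7147460-7147469), neither reached by its peaks, and *AGL19* had one 1389 bp inside the gene, also outside its peaks. *AGL71* and *AGL72* had none in the gene, the 3 kb before it or the 1 kb after it. Of all protein-coding genes, 18.5% had a strict CArG-box in the 3 kb upstream. A G-box was present in that window for *AGL42*, *AGL72*, *AGL14* and *AGL19*, and for 31.7% of all protein-coding genes.

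Reads from copied sequence can be placed wrongly, and the clade was searched for such copies. None of the 200 bp windows over the 6 genes and their surroundings, and none of the 8 summits, matched another place of the genome at 95% identity over 150 bp, and the best matches elsewhere were 81.4% to 89.0% identical.

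Counted by list, 3 of the 6 genes had a peak of SVP:GFP in WT, where 2.64% of 27444 protein-coding genes were assigned to a peak. In *flc-3* the same 3 genes had one, with 1.02% of all genes. For FLC, *SOC1* was the only member in WT, with 1.15% of all genes, and in *svp-41*, with 1.32%. The number of members was thus the same in both genotypes for either protein, although the SVP:GFP lists held 523 and 246 peaks and the FLC lists 315 and 419.

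The loss of the partner protein was compared through the ratio of fold-enrichments between mutant and WT. The lists differ in the number of peaks and their depth is unknown, so a ratio was read against those of all genes shared by the pair of lists. For SVP:GFP the median ratio of *flc-3* to WT over 220 shared genes was 0.641, with quartiles of 0.554 and 0.830. *SOC1* had a ratio of 0.587 and *AGL19* of 0.555, both between the lower quartile and the median. *AGL14*, at 0.801, was between the median and the upper quartile. Among the shared genes the ranks by −log10(*P*) in WT and *flc-3* were 11 and 25 for *SOC1* and 86 and 29 for *AGL14*. For FLC the median ratio of *svp-41* to WT over 183 shared genes was 1.26, with quartiles of 0.928 and 1.75. *SOC1* had a ratio of 1.77, above the upper quartile, with 37 genes higher, and ranked 27 of the shared genes in WT and 1 in *svp-41*. The 2 lists of each ratio share their control samples, and no replicate error can be set beside a ratio.

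**Figure D4:**
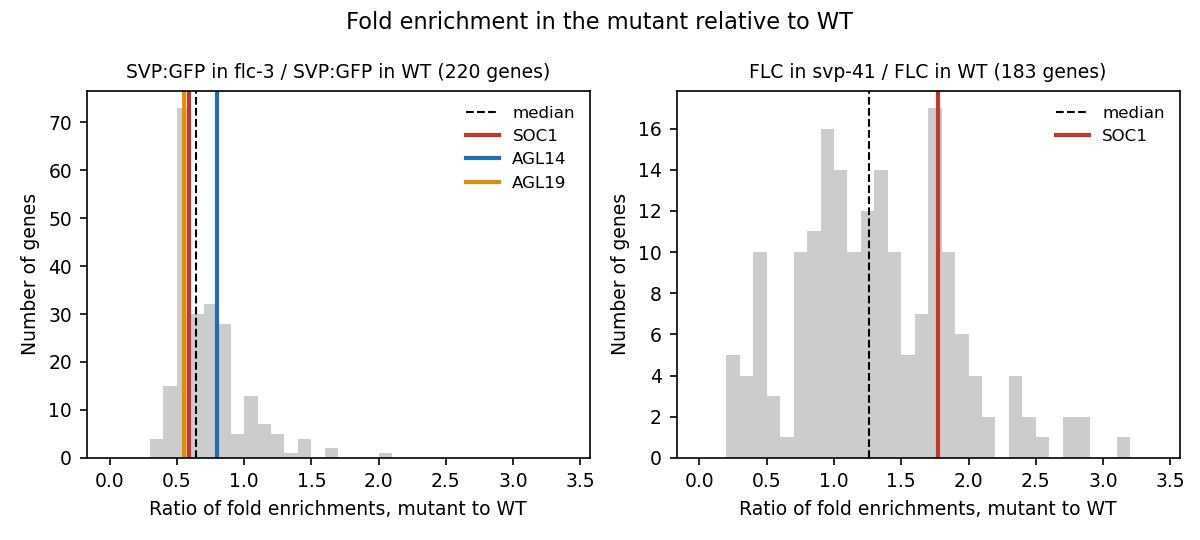
Histograms of the ratio of fold-enrichment in the mutant to that in WT (x) by number of genes (y), for the 220 genes shared by the SVP:GFP lists and the 183 shared by the FLC lists, with the median dashed and the clade in colour. *SOC1* is at 0.587 for SVP:GFP and at 1.77 for FLC.

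The clade was set beside 33 other MIKC-type MADS-box genes, the class of plant MADS-box genes to which it belongs. Of these, 5 (15.2%) had a peak of SVP:GFP in WT, 3 (9.09%) of SVP:GFP in *flc-3*, 6 (18.2%) of FLC in WT and 8 (24.2%) of FLC in *svp-41*. *SEP3*, a floral organ identity gene, *SVP* itself and *SHP2*, a gene of carpel and fruit development, shared with *SOC1* the presence in all 4 lists. *SEP3* had fold-enrichments of 10.4, 6.85, 8.77 and 11.8 in the 4 lists and ranks of 1, 11, 10 and 9, so that *SOC1* was below it in the SVP:GFP lists, and in the FLC lists above it in fold-enrichment but below it in rank in WT. *SVP* lies on the SVP:GFP transgene, and its peaks in those lists cannot be told apart from transgene DNA. None of the 33 genes had the pattern of *AGL14* and *AGL19*, a peak in both SVP:GFP lists and in no FLC list. That pattern was shown by 0.496% of all protein-coding genes, so a count of 0 in 33 does not set these genes apart.

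In all, 9 of the 33 genes (27.3%) had a peak in any list, as had 3.84% of all protein-coding genes. *AGL16*, a flowering repressor, had a peak of SVP:GFP in WT (fold-enrichment 7.71) and of FLC in WT (11.5) and *svp-41* (3.99). *AP3*, a gene of petal and stamen identity, had FLC peaks of 2.92 in WT and 6.88 in *svp-41*, and *TT16*, which acts in the seed coat, had FLC peaks of 3.71 and 6.18. *AGL15* and *AGL18* had weak FLC peaks in *svp-41* only (2.83 and 2.54), and *FLC* had a peak of SVP:GFP in WT only (3.75). The *FLC* gene is itself mutated in *flc-3*, so the absence of its peak there cannot be read as loss of binding.

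**Figure D5:**
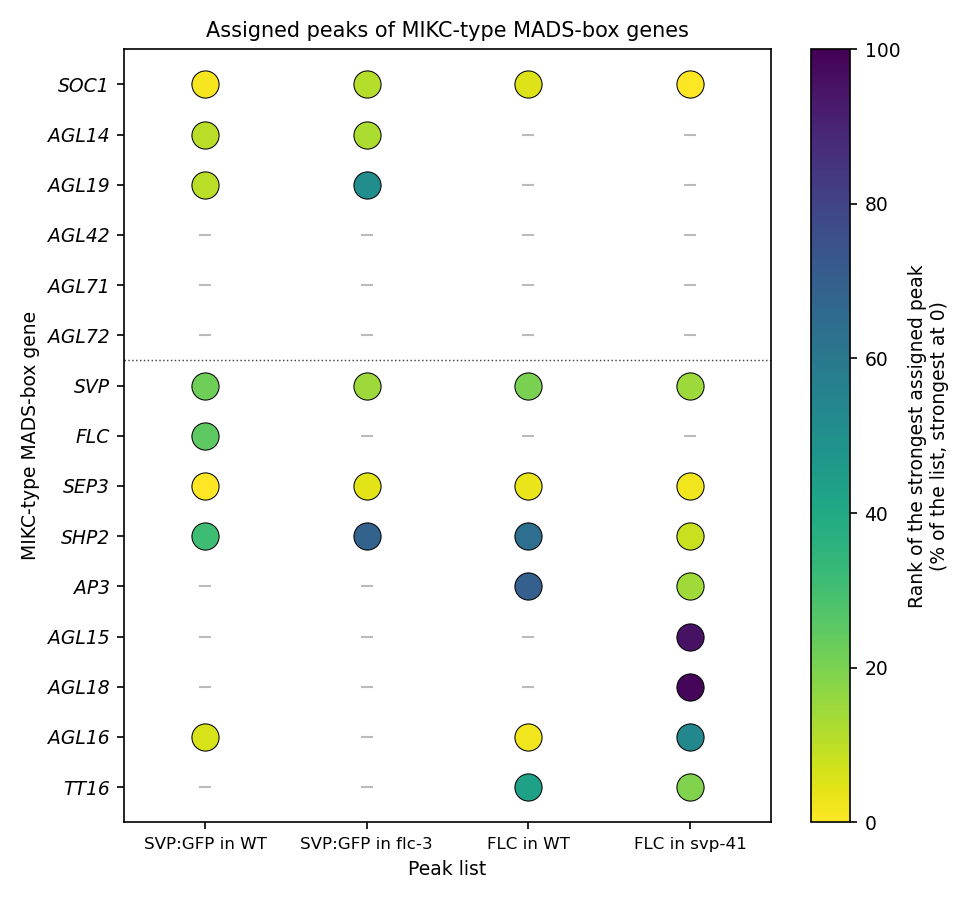
Genes of the *SOC1* clade (above the dotted line) and the other MIKC-type MADS-box genes with a peak, by list, with the colour of a circle giving the rank of the strongest assigned peak (percent of the list) and a dash where no peak was assigned. *SOC1*, *SEP3*, *SVP* and *SHP2* have a circle in all 4 lists, and *AGL14* and *AGL19* in the SVP:GFP lists only.

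Of 14 genes that act with *SOC1* in the flowering network, 2 (14.3%) had a peak in any list, beside 3.84% of all protein-coding genes. *FT*, which encodes the mobile flowering signal, had a peak of SVP:GFP in *flc-3* (fold-enrichment 2.12, rank 181) and one of FLC in *svp-41* (6.10, rank 70). *SPL15*, an activator of the floral transition, had a peak of FLC in WT (4.67, rank 83). The *SOC1* peak thus had a higher fold-enrichment and rank than theirs in each of these lists. *AGL24*, *FUL*, *LFY*, *AP1* and the other genes of the network had none.

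The genes most like *SOC1* were sought among the other 54 genes with a peak in all 4 lists, by the distance between their ranks as percent of the list. *NAC3* (AT3G15500), a NAC-domain transcription factor, was closest at 3.72 percentage points, followed by AT1G44010 at 6.39 and *SEP3* at 7.23. For *AGL14* the closest gene with a peak of its own was AT5G62220 (*GT18*) at 5.88 points, and for *AGL19* they were *HVA22E* (AT5G50720) at 2.44 and *GAMMA-TIP* (AT2G36830) at 2.80, over 2 lists each.

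The study's own ChIP-qPCR primers were placed on the genome by exact match. The paper describes its plus primers as flanking predicted binding sites, so their positions may not be independent of the called peaks. Their qPCR enrichments were not compared here. At *SOC1* the amplicon of the plus primers, chr2:18810983-18811223, contained all 4 summits. A further *SOC1* primer is listed without a plus mark or a stated partner. Paired here with the plus primer on the opposite strand, it bounded chr2:18811108-18811223, which also contained all 4 summits. At *AGL19* the amplicon of the plus primers, chr4:12028492-12028570, contained both summits.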

How the data were processed

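The authors aligned the reads to TAIR10 with Bowtie2 2.0.2 and used MACS with the combined control samples to call peaks. Reproducibility was assessed between pairs of the 3 samples of a group. By the supplementary methods, the largest number of peaks reproducible in any pair was kept, so a listed peak need not be reproducible in every pair. Of these peaks, the ones that NarrowPeaks also detected were kept. Each of the 4 deposited lists gives the start, end, summit and assigned genes of the merged peaks, a fold-enrichment (the ratio of sample to control that the authors obtained) and a −log10 p-value from the authors' peak calling. How the values of a merged peak were taken from its samples is not given in the sources used here, and the depth per sample is unknown. A gene was assigned by the authors where a summit lay up to 3 kb before it or 1 kb after it.

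Sequences, genes and transcripts came from TAIR10.1 (RefSeq), because 1901 of 1906 pairs of peak and assigned gene met that window in it. A further 33 pairs, whose gene identifier is absent from that annotation, were left out of this count. Peaks were ranked within a list by −log10 p-value, without tests. Motifs were matched as letters on both strands with Python 3.11.15, NumPy 2.4.6 and pandas 2.3.3, Wilson intervals (counting error only) with statsmodels 0.14.6, copies with blastn 2.17.0, and figures with matplotlib 3.10.9. The motif search was tested on simulated sequences, gene assignment on random positions around annotated genes, and ranking on the SVP:GFP list in WT. The genes named were the clade, its neighbours and co-assigned genes, MIKC-type and flowering-network genes with a peak, and the 3 genes most like each member. The clade and the gene lists were chosen with earlier results of these data known. Proteins of the clade were not analysed here.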

Additional observations from a re-analysis of the deposited data

How the results depend on the processing

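The members with a peak were the same 3 genes for SVP:GFP and *SOC1* for FLC under 7 of 8 changes of threshold, list length, gene window and peak position. The exception was a minimum −log10(*P*) of 20, which left 2 members for SVP:GFP in *flc-3* because *AGL19* was at 18.7. Ranked by fold-enrichment, in *flc-3* *SOC1* stood at 7.32% of the list and *AGL19* at 36.6%. When an overlap of at least 50% of both peaks was required, *AGL19* had 0 of 1 pairs of overlapping peaks and *SOC1* 4 of 6. Measured from the midpoint of the peak, *SOC1* was 316, 44, 17 and 24 bp upstream in the order of the lists, *AGL14* 583 and 484 bp, and *AGL19* in WT 654 bp. A CArG-box was present in 7 of the 8 peaks with 1 mismatch allowed, in 0 with 5 or 7 A or T bases, and in 0 within 100 bp of the summit. Of all peaks in the 4 lists, in order, 71.5%, 48.0%, 57.8% and 54.2% had a box with at most 1 mismatch. Boxes with 5 or 7 A or T bases were in 11.9%, 8.54%, 8.57% and 8.11%. A strict box lay within 100 bp of the summit in 4.4%, 7.32%, 8.89% and 9.31%. Each of these comparisons used the same lists and changed only a definition, and what lies behind the differences was not tested. By fold-enrichment *SOC1* also stood at 0.765% of SVP:GFP in WT and 3.49% of FLC in WT, against 1.34% and 5.40% by −log10(*P*). No paired analysis was possible because the lists merge the replicates, and leaving out single replicates could not be done for the same reason. The lists hold only peaks above the authors' thresholds, so weak binding and differences in depth between lists limit what absence from a list shows.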
